A study of Mus musculus with 9 samples.

Results

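The 10 glycolytic enzyme genes Hk1, Hk2, Pfkp, Pfkl, Aldoa, Pgk1, Pgam1, Eno1, Pkm and Ldha were followed across 3 mouse cell lines on 9 oligonucleotide arrays. They belong to the pathway from hexokinase to lactate dehydrogenase and were chosen with earlier results of these data known. Every probe set annotated to exactly 1 gene symbol, being a listed gene, was taken. This gave 17 probe sets for 9 of the 10 genes, out of 22690 probe sets on the array and 12394 symbols in the annotation. Eno1, which encodes the common enolase, had no probe set with that symbol alone and was not analysed here. Hk2, Pgam1, Pkm and Ldha had 1 probe set each, Hk1, Pfkp and Pfkl 2, Pgk1 3 and Aldoa 4. NIH 3T3 is an immortalised mouse fibroblast line, labelled wild type and used as the control. SV5 is a stable clone of it transformed by the large T antigen of SV40, and SV5-NN4 is a stable clone that expresses both large T antigen and wild-type N-ras. Each line had 3 arrays with the numbers 1 to 3, all lines grew in calf serum medium, and each transformed line is 1 clone. Which promoters drive the added genes is not stated in the sources used.

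Glycolysis turns glucose into pyruvate in the cytosol. Hexokinases trap glucose as its phosphate, phosphofructokinase takes the committed step, aldolase splits the sugar, and the later enzymes harvest ATP before lactate dehydrogenase reduces pyruvate and restores NAD. Proliferating and transformed fibroblasts are known for running this pathway fast even with oxygen present. Its genes are known targets of the hypoxia-inducible factors and of Myc proteins, which bind short DNA elements with shared core letters.

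The stretch before the transcription start is shown for genes whose differences carry the findings below: Pkm, Aldoa and Pfkp, which were called, Ldha, which has most matches, and Hk2, which ran the other way. Sequences are the 250 bases before a RefSeq start in GRCm38.p6, read 5′ to 3′ on the gene's strand. Capitals mark the core of the hypoxia response element, ACGTG or GCGTG, on either strand.
Pkm, first start, chr9:59656326-59656575, plus strand: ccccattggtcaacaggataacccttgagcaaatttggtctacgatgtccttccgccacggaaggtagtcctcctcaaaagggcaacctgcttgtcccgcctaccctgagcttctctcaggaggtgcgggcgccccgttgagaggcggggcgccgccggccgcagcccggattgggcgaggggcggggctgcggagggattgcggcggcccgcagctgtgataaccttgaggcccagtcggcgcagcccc
Aldoa, second start, chr7:126799255-126799504, minus strand: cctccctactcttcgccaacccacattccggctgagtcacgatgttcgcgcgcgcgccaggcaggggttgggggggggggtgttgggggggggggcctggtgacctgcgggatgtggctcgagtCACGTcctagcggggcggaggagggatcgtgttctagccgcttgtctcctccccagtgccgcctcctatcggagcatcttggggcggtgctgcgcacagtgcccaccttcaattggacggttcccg
Pfkp, chr13:6648772-6649021, minus strand: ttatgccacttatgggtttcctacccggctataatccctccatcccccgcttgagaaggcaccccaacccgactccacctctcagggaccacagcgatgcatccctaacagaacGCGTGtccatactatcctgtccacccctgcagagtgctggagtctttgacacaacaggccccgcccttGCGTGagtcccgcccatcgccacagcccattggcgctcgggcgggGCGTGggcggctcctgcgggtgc
Ldha, first start, chr7:46845554-46845803, plus strand: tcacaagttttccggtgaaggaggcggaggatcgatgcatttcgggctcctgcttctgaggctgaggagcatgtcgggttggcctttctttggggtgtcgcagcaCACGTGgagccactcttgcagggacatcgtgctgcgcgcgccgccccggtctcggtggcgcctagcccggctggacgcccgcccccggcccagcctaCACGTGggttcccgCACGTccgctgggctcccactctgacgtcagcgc
Hk2, chr6:82774455-82774704, minus strand: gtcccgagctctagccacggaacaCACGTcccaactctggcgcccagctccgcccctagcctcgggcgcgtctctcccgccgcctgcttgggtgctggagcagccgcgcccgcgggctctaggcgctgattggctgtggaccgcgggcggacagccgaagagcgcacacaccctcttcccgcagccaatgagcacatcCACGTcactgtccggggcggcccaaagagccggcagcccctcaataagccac

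All 10 genes, Eno1 included, had entries among the promoters, with 17 start windows between them. The hypoxia core was found in 14 of these 17 windows, while 38.6% of all 32851 windows of the same length held it. These windows are not all separate: the windows of Aldoa starts 2 and 3 overlap and share a match, as do those of Eno1 starts 2 and 3, so the same letters are counted more than once. Each of the 10 genes had the core before at least 1 of its starts. Pfkp held 3 separate matches and Hk2 2, so the letters stood before a gene called higher and before the gene with the opposite order of line means. The window before the first Pkm start held none, and its second start held 1. The E-box CACGTG, which overlaps the hypoxia core, was in 1 of 17 windows against 6.02% of all. That window was the first start of Ldha, where it occurred 2 times, and the 5 core matches there fall in 3 separate stretches because an E-box reads as the core on both strands. The GC box GGGCGG was in 9 of 17 windows against 32.7% of all. These matches describe letters, and binding was not measured.

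The arrays gave probe set intensities, used as log2(intensity + 1). Array medians were 56.2 to 62.4 and upper quartiles 165.2 to 239.7. By the rule set for these genes, lines were compared within replicate numbers, and arrays with equal numbers resembled each other across lines. A probe set is called here at an adjusted p under 0.05 over all 22690 probe sets (limma, Benjamini-Hochberg). Fibroblast marker probe sets had a median of 10.98, with the collagens and vimentin bright. Thy1 and Pdgfra, 2 of the 7 fibroblast markers, were called lower in SV5-NN4 than in NIH 3T3, with differences of -2.09 and -1.20 (adjusted p = 0.0018 and 0.022), and Col3a1, Pdgfra and Thy1 lower than in SV5. Markers of epithelial, endothelial, blood, muscle and fat cells had medians of 4.34 to 5.64, with a highest single value of 8.47 among the fat cell markers, and none of them was called. In each line the Actb control probe set at the 3′ end was brighter than that at the 5′ end, a sign of reduced RNA quality or of 3′ bias. The mean gap on the log2 scale was widest in NIH 3T3, at 4.58 ± 0.43 (SD, n = 3), against 3.49 ± 0.98 for SV5 and 4.12 ± 0.49 for SV5-NN4. Single arrays ran from 2.42 (SV5 replicate 3) to 5.06 (NIH 3T3 replicate 3). The input was a fixed amount of total RNA, so less RNA per cell, or fewer cells that express a gene, cannot be told apart from a lower level in every cell.

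Glycolytic probe sets were mostly higher in the transformed clones, and highest in the clone with added N-ras. Against NIH 3T3, 4 of 17 probe sets rose in SV5-NN4, for Pkm, Pfkp and Aldoa, and 0 fell. Over all probe sets 1.14% were called higher and 1.65% in either direction. Their rises were 2.24- to 3.09-fold. SV5 lay between at most probe sets. In either of the steps from NIH 3T3 to SV5 and from SV5 to SV5-NN4, 0 of 17 were called. The line means ran in the order NIH 3T3, SV5, SV5-NN4 at 12 of 17 probe sets, which stand for 8 genes. Of these genes, Hk1, Pfkp and Pgk1 also had probe sets out of that order. SV5 was lowest at 3 of the 17 probe sets, of Pfkp and Pgk1. How many of all probe sets ran in the order NIH 3T3, SV5, SV5-NN4 was not counted. Hk2, the inducible hexokinase, ran in the opposite order.

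**Figure D1:**
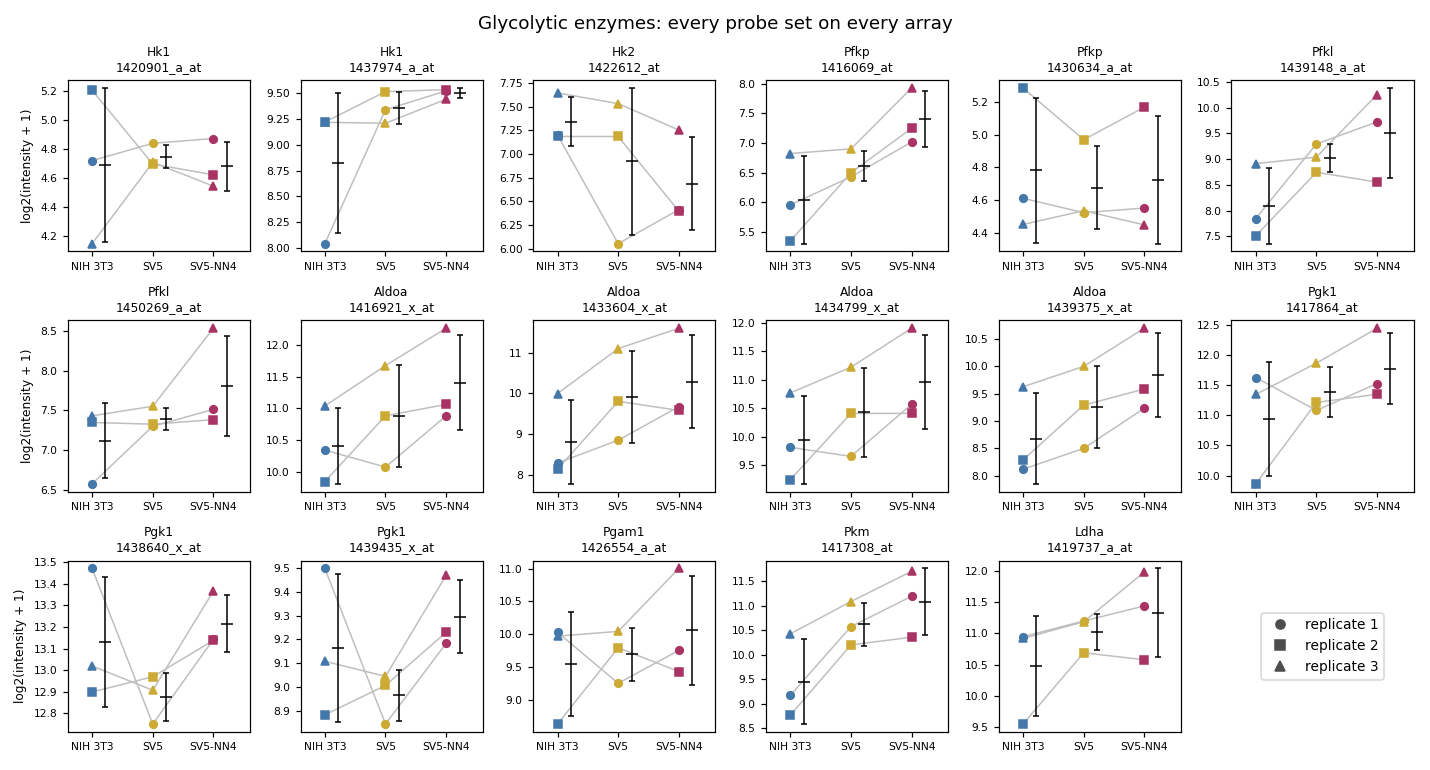
Level of each glycolytic probe set, as log2(intensity + 1), on the 9 arrays. Symbols mark replicate numbers, grey lines join arrays of equal number, and the black bars give the mean and SD of the 3 arrays of a line; the vertical axes differ between panels. The means of Pkm, Pfkp (first probe set) and all 4 Aldoa panels climb from NIH 3T3 to SV5-NN4, while those of Hk2 descend and the second Pfkp probe set stays between 4.45 and 5.28.

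The entry step showed both directions. Hk2 encodes the inducible, mitochondria-bound hexokinase that is prominent in muscle and tumours. It read 7.20, 7.19 and 7.65 in NIH 3T3, 6.05, 7.19 and 7.53 in SV5, and 6.41, 6.39 and 7.25 in SV5-NN4. SV5-NN4 was lower than NIH 3T3 in 3 of 3 pairs, though its highest array lay within the NIH 3T3 range. The difference was -0.66 (SE 0.24, 95% interval -1.23 to -0.08, adjusted p = 0.23 in limma) and was not called. Replicate 2 gave the same value in NIH 3T3 and SV5, so 1 pair of that comparison differed by exactly 0. Hk1, the widely expressed hexokinase, is best seen at the brighter of its probe sets, 1437974_a_at. There it read 8.04, 9.22 and 9.22 in NIH 3T3, 9.34, 9.52 and 9.21 in SV5 and 9.52, 9.54 and 9.44 in SV5-NN4. All SV5-NN4 arrays lay above all NIH 3T3 arrays, with a difference of 0.67 (SE 0.27, adjusted p = 0.26). Most of that gap came from NIH 3T3 replicate 1, since the pairs gave 1.48, 0.31 and 0.22. The other Hk1 probe set, 1420901_a_at, lay at 4.15 to 5.21, just above the bacterial control probe sets, whose means were 3.32 to 3.92, and differed by -0.01.

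At the committed step, 1 of the 4 probe sets of the phosphofructokinases Pfkp and Pfkl was called higher, in SV5-NN4. Pfkm, the muscle isozyme, which is not among the 10 genes and was picked out after its values were seen, differed by -0.12 between SV5-NN4 and NIH 3T3 (adjusted p = 0.71). Pfkp encodes the platelet type. At 1416069_at it read 5.96, 5.35 and 6.82 in NIH 3T3, 6.43, 6.50 and 6.90 in SV5 and 7.02, 7.25 and 7.93 in SV5-NN4. The SV5-NN4 arrays lay above all 6 others, which overlapped each other. Pfkp rose 2.56-fold in SV5-NN4 against NIH 3T3 (log2 difference 1.36, SE 0.21, adjusted p = 0.039), and the 3 pairs gave 1.06, 1.90 and 1.11. Of this, 0.57 lay between NIH 3T3 and SV5 (95% interval 0.06 to 1.07, adjusted p = 0.30) and 0.79 between SV5 and SV5-NN4 (95% interval 0.29 to 1.30, adjusted p = 0.16). The latter passed the threshold in a fit of those lines alone (adjusted p = 0.021), but that fit called 1504 of all 22690 probe sets, so 1 of 17 glycolytic ones is no more than the share over all. Its second probe set, 1430634_a_at, lay at 4.45 to 5.28 and differed by -0.06 between SV5-NN4 and NIH 3T3, so the rise rests on 1 probe set. Pfkl encodes the liver-type isozyme. At 1439148_a_at it read 7.84, 7.51 and 8.91 in NIH 3T3, 9.29, 8.74 and 9.04 in SV5 and 9.72, 8.55 and 10.25 in SV5-NN4. SV5-NN4 overlapped NIH 3T3 through 1 array on each side, and the difference of 1.42 (SE 0.29, 95% interval 0.74 to 2.10) just missed the threshold at an adjusted p of 0.065. It was called when only the brighter probe sets were tested (adjusted p = 0.041 in limma). That setting called 444 probe sets in all, against 375 in the main fit. The other Pfkl probe set differed by 0.69 (SE 0.24, adjusted p = 0.20) with 3 of 3 pairs higher.

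Aldoa, which encodes the main aldolase of fibroblasts and muscle, had 4 probe sets, of which 2 were called and all had their line means in the same order. All carry the array maker's suffix for probes that can match other transcripts as well, so they are not independent views of 1 gene. At 1433604_x_at Aldoa read 8.30, 8.15 and 10.00 in NIH 3T3, 8.85, 9.81 and 11.10 in SV5 and 9.68, 9.58 and 11.60 in SV5-NN4. Replicate 3 was highest in every line, and the lines overlap unless arrays are compared by number. Within numbers SV5-NN4 exceeded NIH 3T3 by 1.38, 1.44 and 1.60, a 2.77-fold rise (log2 difference 1.47, SE 0.22, adjusted p = 0.033). At 1439375_x_at the pairs gave 1.12, 1.30 and 1.07, a 2.24-fold rise (adjusted p = 0.024). The remaining probe sets differed by 0.999 and 1.02 with 3 of 3 pairs higher and were not called (adjusted p = 0.092 and 0.088). In SV5 the 4 differences from NIH 3T3 were 0.47 to 1.11, with an adjusted p of 0.12 at the least.

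The ATP-yielding and mutase steps were less uniform. Pgk1, phosphoglycerate kinase, gave different answers by probe set. At 1417864_at it read 11.63, 9.86 and 11.35 in NIH 3T3, 11.08, 11.21 and 11.87 in SV5 and 11.53, 11.35 and 12.45 in SV5-NN4, so that NIH 3T3 replicate 2 stood low and replicate 1 high. The difference of 0.83 between SV5-NN4 and NIH 3T3 had an SE of 0.33 (adjusted p = 0.27) and pairs of -0.10, 1.49 and 1.10. The 2 other Pgk1 probe sets, with means of 12.88 to 13.22 and 8.97 to 9.29, differed by 0.09 and 0.13 only, with upper bounds of 0.50 and 0.54. Like those of Aldoa, these carry the suffix for probes that can match other transcripts as well. All 3 probe sets were higher in SV5-NN4 than in SV5 in 3 of 3 pairs, by 0.33 to 0.39 (adjusted p = 0.52 to 0.79). Pgam1, phosphoglycerate mutase, read 10.03, 8.63 and 9.97 in NIH 3T3, 9.25, 9.79 and 10.04 in SV5 and 9.75, 9.43 and 11.003 in SV5-NN4. These ranges overlap throughout, and its difference of 0.52 between SV5-NN4 and NIH 3T3 had a 95% interval of -0.32 to 1.35.

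Among the 17 probe sets, Pkm showed the widest gap between SV5-NN4 and NIH 3T3. It encodes the muscle-type pyruvate kinase in both splice forms, which were not separated here. It read 9.17, 8.77 and 10.43 in NIH 3T3, 10.57, 10.20 and 11.08 in SV5 and 11.19, 10.36 and 11.70 in SV5-NN4. Only the highest NIH 3T3 array reached into the ranges of the clones. Pkm rose 3.09-fold in SV5-NN4 against NIH 3T3 (log2 difference 1.63, SE 0.19, 95% interval 1.18 to 2.07, adjusted p = 0.018), with pairs of 2.02, 1.59 and 1.27. Most of this was present in SV5, which exceeded NIH 3T3 by 1.16 (SE 0.19, unadjusted p = 0.00041, adjusted p = 0.11) with 3 of 3 pairs higher. SV5-NN4 exceeded SV5 by 0.46 (95% interval 0.02 to 0.91, adjusted p = 0.36), again in 3 of 3 pairs. Ldha, the lactate dehydrogenase subunit that favours lactate formation, read 10.94, 9.55 and 10.92 in NIH 3T3, 11.19, 10.69 and 11.18 in SV5 and 11.44, 10.58 and 11.98 in SV5-NN4. Replicate 2 was lowest in every line. Ldha differed by 0.86 between SV5-NN4 and NIH 3T3 (SE 0.21, 95% interval 0.36 to 1.36, adjusted p = 0.10) with pairs of 0.49, 1.03 and 1.06, and was not called.

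**Figure D2:**
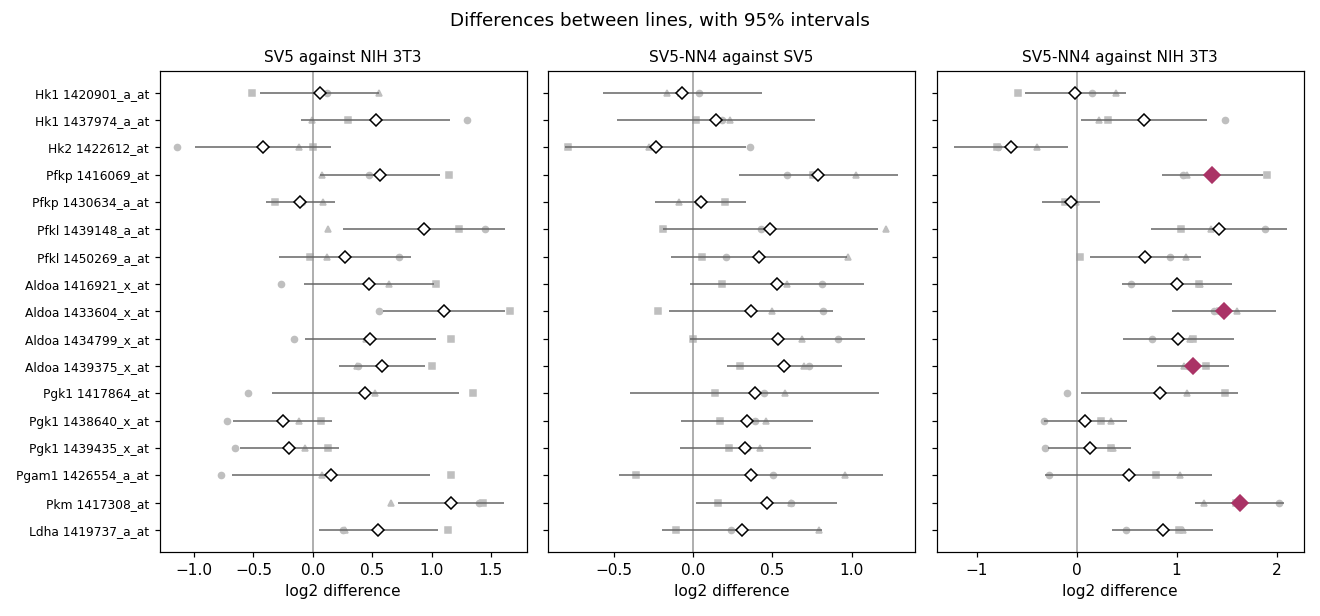
Log2 difference of each glycolytic probe set in the 3 comparisons, first line minus second. Diamonds give the fitted difference, filled where it was called, horizontal lines its 95% interval, and grey symbols the 3 differences within equal replicate numbers; only the right panel has filled diamonds, for Pfkp, Pkm and 2 Aldoa probe sets.

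As a group, the 17 probe sets had a median difference of 0.83 in SV5-NN4 against NIH 3T3, beside -0.03 over all probe sets. Of all 22690 probe sets 10180 lay above 0, and of the 17 glycolytic ones 14. At an unadjusted p under 0.05, 11 were higher, against 10.0% of all probe sets, and all 3 pairs were higher at 10, against 16.9%. The groups did not overlap, with SV5-NN4 above, at 2 (Hk1 and Pfkp), against 3.34%. Bright probe sets in general leaned the same way: among the 5673 with the highest mean level the median was 0.13 and 2.79% were called higher. Of those 5673, 3479 lay above 0. Of the 12 glycolytic probe sets among these, 3 were called, 12 lay above 0 and the median was 0.93. In SV5 against NIH 3T3 the median was 0.47, with 0 called beside 0.0617% of all. There 6 were higher at an unadjusted p under 0.05 (8.56% of all), and in 6 all 3 pairs were higher (12.9%). That median was 0.24 without SV5 replicate 2 and 0.28 without NIH 3T3 replicate 2. In SV5-NN4 against SV5 the median was 0.37, with 0 called beside 0.864%, 3 higher at an unadjusted p under 0.05 (6.64%) and 9 with all 3 pairs higher (20.9%). That median was 0.61 without SV5 replicate 2 and 0.25 without either SV5 replicate 1 or SV5-NN4 replicate 3. The comparisons share arrays, and the difference of SV5-NN4 from NIH 3T3 is the sum of the other 2, so they are not separate evidence. Since the genes were chosen with earlier results of these data known, the shares above describe them and are no test.

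The call count rested on the pairing and on single arrays. Without the replicate block 0 of 17 were called, with 3 at an unadjusted p under 0.05 in limma (Pfkp, Pfkl and Pkm). In a fit of SV5-NN4 and NIH 3T3 alone 0 of 17 were called. Each of these fits called 18 over all probe sets. Leaving out NIH 3T3 replicate 1 gave 8 calls, where calls over all probe sets went from 375 to 1239. Leaving out NIH 3T3 replicate 2 gave 0, with 15 over all, and leaving out SV5-NN4 replicate 1, 2 or 3 gave 0, with 45, 13 and 18 over all. Without NIH 3T3 replicate 3, SV5 replicate 1 or SV5 replicate 2 there were 3 calls, with 222, 129 and 120 over all, and without SV5 replicate 3 there were 4, with 204. The count of glycolytic calls thus moved with the count over all probe sets. Quantile normalization, with 325 called over all probe sets, ended the call of Pfkp (adjusted p = 0.064 in limma). The 4 called differences themselves stayed between 1.02 and 1.84 whichever array was left out.

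Replicate number outweighed line at most of these probe sets. Between replicate numbers lay a median of 45.1% of a glycolytic probe set's sum of squares and between lines 32.8%. Line outweighed number at 6 of 17. For Pkm 60.1% lay between lines and 36.1% between numbers, and for Pfkp at its bright probe set 62.4% and 29.1%. For the called Aldoa probe sets the balance was turned, with 32.8% and 35.6% between lines and 63.5% and 62.0% between numbers. Over all probe sets, number took 61.1% and line 21.8%. The replicate 3 array was the highest of its line, in all 3 lines, at 8 of 17 probe sets.

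Gapdh, the enzyme between aldolase and Pgk1, was read by 3 array control probe sets along its transcript, and here position mattered. At the 3′ end it rose 1.81-fold in SV5-NN4 against NIH 3T3 (log2 difference 0.86, adjusted p = 0.030), and in the middle 2.90-fold (1.54, adjusted p = 0.014). The 5′ probe set differed by 1.39 (SE 0.52, adjusted p = 0.23). In SV5 the middle probe set rose 2.98-fold (adjusted p = 0.048), while the 3′ probe set differed by 0.62 (adjusted p = 0.12). This SV5 call was fragile. No probe set on the array was called in SV5 against NIH 3T3 with median-centred arrays, quantile normalization, a pseudocount of 16 or a fit of those lines alone. The same held when any single SV5 or SV5-NN4 array was left out. The gap between the 3′ and 5′ probe sets was 2.65, 2.99 and 5.21 in NIH 3T3, 2.45, 3.03 and 2.36 in SV5 and 2.66, 3.52 and 3.05 in SV5-NN4. NIH 3T3 replicate 3 stood apart with a low 5′ reading of 6.93. The same transcript thus gave differences from 0.86 to 1.54, and at the 3′ end all SV5-NN4 arrays still lay above all NIH 3T3 arrays. Where the probe sets of the other glycolytic genes lie on their transcripts was not determined, and the part of RNA quality in their differences was not tested. Without NIH 3T3 replicate 3 the difference of Pkm was 1.84, that of Pfkp 1.54, and those of the called Aldoa probe sets 1.44 and 1.24. Aldoa 1433604_x_at was not called there (adjusted p = 0.070 in limma). At these probe sets that array read highest of NIH 3T3, and leaving it out is no test of RNA quality.

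**Figure D3:**
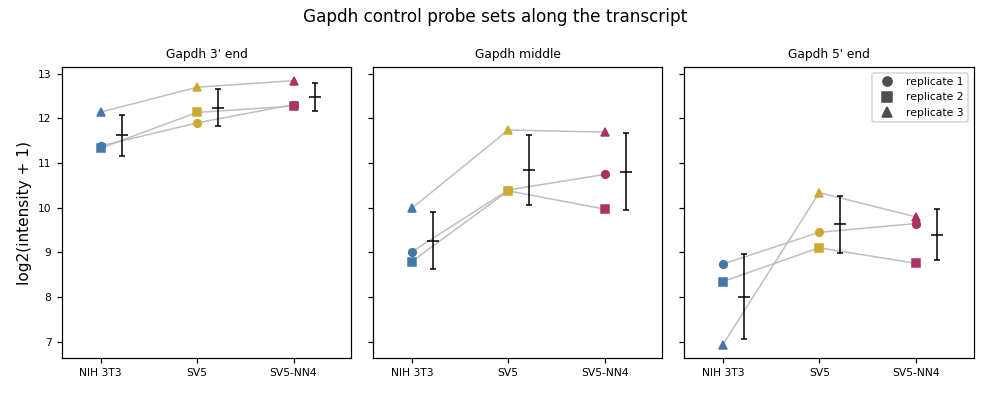
Gapdh at its 3 control probe sets, as log2(intensity + 1), by line. Symbols mark replicate numbers, grey lines join equal numbers and black bars give mean and SD of 3 arrays; the lines differ less at the 3′ end, where means run from 11.62 to 12.48, than in the middle, where they run from 9.26 to 10.84.

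Of the other glycolytic enzymes, Gapdh and Eno3 were called. Of 17 listed, 13 had probe sets, 25 in all, with a median difference of 0.02 in SV5-NN4 against NIH 3T3. That median includes dim isozymes. The probe sets of Aldoc, Pgk2, Pgam2 and Ldhc had line means of 3.72 to 4.90, below the array-wide median of 5.90. In that comparison 3 of 25 rose, the 3′ and middle Gapdh probe sets and that of Eno3, beside 1.14% called higher over all probe sets. Eno3, the muscle enolase, read 6.42, 5.96 and 7.52 in NIH 3T3, 6.79, 7.07 and 8.27 in SV5 and 8.07, 8.02 and 9.02 in SV5-NN4. It rose 3.33-fold in SV5-NN4 against NIH 3T3 (adjusted p = 0.011), and its step from SV5 was 0.99 (adjusted p = 0.054). Tpi1, triose phosphate isomerase, differed by 1.15, 0.53 and 0.60 at its 3 probe sets (adjusted p = 0.11 to 0.34).

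Among the transport and control genes, Bsg and Pdk4 were called. Slc2a1, the basal glucose transporter, differed by 0.15, 0.63 and -0.32 in SV5-NN4 against NIH 3T3 (adjusted p = 0.24 to 0.81). Of 13 transport probe sets 1 rose, beside 1.14% called higher over all probe sets. It was that of Bsg, the chaperone of the lactate transporters. It read 7.82, 7.47 and 9.32 in NIH 3T3, 9.02, 9.14 and 10.75 in SV5 and 9.42, 8.78 and 10.77 in SV5-NN4. The lines overlap through the NIH 3T3 replicate 3 array, and within replicate numbers the rise was 2.74-fold (adjusted p = 0.014). None of the 5 probe sets of Pfkfb2 and Pfkfb3, which set fructose 2,6-bisphosphate, was called in any comparison. These were dim, with line means of 3.52 to 5.67, below the array-wide median of 5.90. Pfkfb1, Pfkfb4 and Tigar, also listed, had no probe set with that symbol alone. Of 14 probe sets for pyruvate entry into mitochondria, 1 fell between SV5 and SV5-NN4: Pdk4, a kinase that inhibits pyruvate dehydrogenase, fell by 2.44, from 9.80 ± 1.06 to 7.36 ± 0.68 (SD, n = 3, adjusted p = 0.028). Over all probe sets 0.864% were called in that step. Against NIH 3T3, SV5-NN4 differed at Pdk4 by -1.23 (adjusted p = 0.12).

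Branches off the pathway differed too. In the pentose phosphate pathway 2 of 12 probe sets rose in SV5-NN4 against NIH 3T3. Taldo1, transaldolase, rose 3.11-fold (adjusted p = 0.022), and Pgd, which makes NADPH, rose 2.24-fold at 1 of its 4 probe sets (adjusted p = 0.045), while the other 3 differed by 0.42 to 0.45. On the citric acid cycle list 3 of 30 probe sets rose, by 0.88 for the cytosolic malate dehydrogenase Mdh1, 0.89 for Idh3g and 1.01 for Sdhb. The list median was 0.49. Other probe sets of these genes were not called, at 0.49 for Idh3g and -0.46 to 0.14 for Mdh1. Because Mdh1 is cytosolic, the count and median of this list are not those of the mitochondrial cycle alone. Gluconeogenic genes had 0 of 13 called, with 2 higher and 0 lower at an unadjusted p under 0.05 in limma, and a median of 0.02. These counts stand beside the 1.65% called over all probe sets.

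Hypoxia-induced genes and known regulators were read as well, and their part in the glycolytic differences was not tested. The hypoxia-induced genes outside glycolysis had a median of -0.05 in SV5-NN4 against NIH 3T3. Of 20 probe sets 0 rose and 1 fell, that of the transcription factor Bhlhe40, by 1.01 (adjusted p = 0.026). Hif1a, the inducible subunit of the hypoxia factor, differed by -0.41 to -0.13 at 4 probe sets, none called. Myc differed by 0.05 (adjusted p = 0.96). Mycn, which encodes N-Myc, read 6.27, 7.04 and 6.12 in NIH 3T3, 11.82, 11.09 and 12.57 in SV5 and 12.84, 12.21 and 13.23 in SV5-NN4 at its bright probe set. It was 77.8-fold higher in SV5-NN4 than in NIH 3T3 (adjusted p = 0.0019), while its 2 dim probe sets differed by -0.39 and 0.24. In SV5 against NIH 3T3 the bright probe set differed by 5.35 (adjusted p = 0.048 in limma). That SV5 call was lost in the settings, given with Gapdh, in which no probe set was called.

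**Figure D4:**
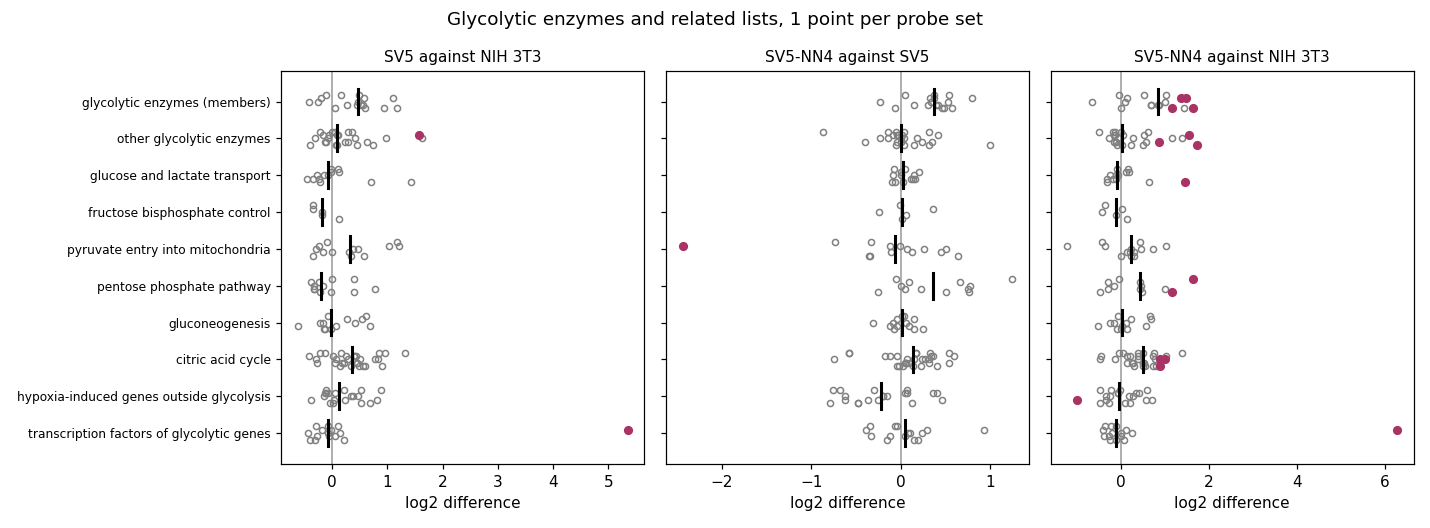
Log2 differences of the glycolytic probe sets and of the related gene lists in the 3 comparisons, 1 point per probe set, filled where called, with a black bar at each list's median. In SV5-NN4 against NIH 3T3 the glycolytic median is 0.83, that of the citric acid cycle 0.49 and that of the hypoxia-induced genes -0.05; the far right point is Mycn.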

How the data were processed

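The authors deposited 1 table of probe set intensities on a linear scale for 9 arrays. RMA is the tool listed in the submitters' processing notes, without version or settings. The deposited arrays do not share 1 distribution: upper quartiles of intensity ran from 165.2 to 239.7 and were highest on the replicate 3 array of each line. Gene symbols came from the platform annotation, where 20393 of 22690 probe sets had exactly 1 symbol. The intensities were taken as log2(intensity + 1), which slightly understates differences of dim probe sets. Lines and replicate numbers came from the sample titles. The test was limma 3.58.1 (R 4.3.3, lmFit and eBayes) on all 9 arrays, with 1 mean per line and the replicate number as a block, adjusted by Benjamini-Hochberg across the 22690 probe sets. It was tested on simulated data. The block was used because the rule set for these genes pairs arrays of equal replicate number. With line means subtracted, the 9 pairs with equal numbers correlated at 0.26 to 0.84 and the 18 others at -0.73 to 0.11. The low values of the 18 are not separate evidence. Once its mean is subtracted, the arrays of a line sum to 0, so high values among equal numbers force low ones elsewhere. The labels name neither a reason for the resemblance of equal numbers nor separate cultures, and the spread that the p-values measure may be technical. The members and gene lists were chosen with earlier results of these data known. Every member probe set is described. From the related lists, each called gene is named (at most 5 per list and comparison), plus Gapdh, Tpi1, Slc2a1, Hif1a, Myc and Mycn. Gpi1 was also to be named and was not analysed here, and the planned comparison of isozyme proteins was not made. Alternatives changed the block, the arrays fitted, the normalization, the pseudocount, the filter on dim probe sets and the prior, and left out each array.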

Additional observations from a re-analysis of the deposited data

How the results depend on the processing

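The pairing by replicate number carried the calls. Without the replicate block, the glycolytic probe sets called in SV5-NN4 against NIH 3T3 went from 4 to 0. Those of the related lists went from 11 to 1 there, with 2 to 1 in SV5 against NIH 3T3 and 1 to 0 in SV5-NN4 against SV5. Calls over all probe sets fell too, from 375 to 18, from 14 to 1 and from 196 to 19 in these comparisons, in that order. A fit of only the lines compared gave 0 in SV5-NN4 against NIH 3T3 and 1, Pfkp, in SV5-NN4 against SV5, where it called 1504 of all 22690 probe sets against 196 in the fit of all arrays. The other settings gave 3 to 5, with 262 to 444 called over all probe sets. The 5 came with only the brighter probe sets, the setting with 444. Leaving out 1 array gave 0 to 8, with 13 to 1239 called over all probe sets. Some small differences changed sign. For Hk1 1420901_a_at, SV5-NN4 against NIH 3T3 became 0.0096 with arrays centred on their medians and 0.068 with quantile normalization, where Pfkp 1430634_a_at became 0.018. With 1 array left out, Hk1 1420901_a_at ran from -0.17 to 0.34 in SV5 against NIH 3T3, from -0.24 to 0.27 in SV5-NN4 against NIH 3T3 and from -0.21 to 0.082 in SV5-NN4 against SV5. In SV5-NN4 against SV5, Hk1 1437974_a_at ran from -0.067 to 0.33, Hk2 from -0.57 to 0.0069 and Pfkp 1430634_a_at from -0.043 to 0.13. In SV5-NN4 against NIH 3T3, Pfkp 1430634_a_at ran from -0.12 to 0.0067, Pgk1 1438640_x_at from -0.034 to 0.31 and Pgk1 1439435_x_at from -0.0030 to 0.36. In SV5 against NIH 3T3, Pgam1 ran from -0.28 to 0.58 and Pgk1 1439435_x_at from -0.33 to 0.028. The cause was not tested. With 3 arrays per line precision is limited, and Hk1 1420901_a_at and Pfkp 1430634_a_at lie near the level of the bacterial controls.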
